A study of Mus musculus with 6 samples.

Results

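The genes described here are 40 mouse interferon-stimulated genes, the antiviral genes that type I interferon switches on, taken by name from a list of symbols. All 40 were found among the 55487 genes of the deposited count table, and all 40 passed the filter on low counts and were tested. Their polyadenylated RNA was measured in mouse dorsal skin taken whole at day 2. In 3 libraries the skin was treated with DPCP and clodrosome. DPCP is diphencyprone, a contact allergen that inflames the skin of sensitised animals, and clodrosome is a liposome loaded with clodronate that kills the phagocytes that engulf it. The other 3 libraries came from skin treated with DPCP and encapsome, the same kind of liposome without the drug. DPCP is therefore shared by both groups, and skin without DPCP or without liposomes was not analysed here. The labels used here give no strain, genotype, sex or age and no route for the liposomes. They also do not say that each library is a separate mouse, so each p-value measures no more than the spread between the libraries, which may be technical.

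Type I interferons, the interferon alpha family and interferon beta, are secreted by cells that sense foreign or misplaced nucleic acid. They bind a receptor made of IFNAR1 and IFNAR2, which activates the kinases TYK2 and JAK1 and leads to the assembly of ISGF3, a transcription factor complex that holds STAT2 and IRF9. That complex binds a DNA element in the promoters of interferon-stimulated genes, which encode sensors of viral RNA, enzymes that degrade RNA or deplete nucleotides, and proteins that block viral entry or translation. Macrophages and plasmacytoid dendritic cells are known sources of type I interferon in inflamed skin, and most cell types of skin can respond to it.

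The DNA element is a tandem GAAA repeat, and it was looked for as GAAA, any 2 bases and GAAA again, on either strand, in the 250 bases before each gene's start (RefSeq promoter windows, build GRCm38.p6). Of the 40 genes, 29 had a window, and 12 of these 29 (41.4%) held the motif, against 936 of 27025 genes with a window (3.46%). Overlapping matches were counted together. Some genes had several windows, and a gene was counted if any of its windows held the motif. Of the genes lower in clodrosome skin that had a window, 5 of 8 held the motif, and of those with no call, 7 of 20. The window of the 1 higher gene, Ifi44, did not hold these letters. A match is a description of the sequence and not a measured binding site. The stretches below are shown because they belong to genes that the results turn on, some lower in clodrosome skin (Ddx60, Oas1a, Oas1g, Rsad2) and some with no call (Isg15, Ifit1, Ifit3, Ifit3b). They are written 5′ to 3′ on the gene's own strand, with the motif, or its reverse complement (TTTC, any 2 bases, TTTC), in capitals.
Ddx60, chr8:61928014-61928086, plus strand: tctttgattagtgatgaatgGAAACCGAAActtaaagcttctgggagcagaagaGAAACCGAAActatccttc
Oas1a, chr5:120907526-120907565, minus strand: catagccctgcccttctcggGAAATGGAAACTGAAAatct
Oas1g, chr5:120887614-120887651, minus strand: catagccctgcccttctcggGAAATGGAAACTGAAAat
Rsad2, chr12:26456543-26456592, minus strand: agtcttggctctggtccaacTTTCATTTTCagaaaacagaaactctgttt
Isg15, chr4:156200855-156200916, minus strand: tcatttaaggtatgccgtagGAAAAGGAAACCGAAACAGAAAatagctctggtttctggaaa
Ifit1, chr19:34640765-34640833, plus strand: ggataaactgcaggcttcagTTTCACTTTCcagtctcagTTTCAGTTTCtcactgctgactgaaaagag
Ifit3, chr19:34583353-34583436, plus strand: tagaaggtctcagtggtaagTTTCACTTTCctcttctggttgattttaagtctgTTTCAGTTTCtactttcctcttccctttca
The motif nearest to the start lay 14 bases before it in Oas1a, 12 in Oas1g, 19 in Ddx60, 66 in Isg15, 85 in Ifit1, 120 in Rsad2 and 122 in Ifit3. The 38 bases shown for Oas1g are the same as the opening 38 bases of the Oas1a stretch. Ifit3b holds the same 84 bases as Ifit3, at chr19:34607749-34607832 on the plus strand, with the nearest motif 154 bases before its start.

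Library totals lay between 26649396 and 116965654 counts, and clodrosome library A, the deepest, held several times the counts of any other. The letters A, B and C number the libraries of each group by column order in the table. Levels are given as CPM, the count a gene would have at an equal library size, computed with TMM factors from the deposited counts, and a count of 0 allows up to 0.0513 CPM in clodrosome A and up to 0.169 to 0.225 CPM elsewhere (6 counts, taken as 3 read pairs, counting error only). The skin label was met by keratinocyte genes, with Krt14 between 14762 and 16534 CPM in clodrosome skin and between 11203 and 13893 CPM in encapsome skin. The treatment label was met by macrophage genes, of which 12 of 12 fell, with a summed level of 1932 to 3135 CPM in clodrosome skin and 7196 to 8056 CPM in encapsome skin. Counts in rRNA genes made up 0.693% to 0.753% of the total in 1 clodrosome library (B) and 2 encapsome libraries (B and C), and 0.238% to 0.405% in the other three.

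Ifi27l2a, Ddx60 and 4 of the 6 listed oligoadenylate synthetases were lower in clodrosome skin. Isg15, Ifit1, Ifit3, Usp18 and Ddx58 had log2 fold changes between -0.05 and 0.11. In clodrosome skin 12 of the 40 genes fell and 1, Ifi44, rose (edgeR quasi-likelihood test, adjusted p under 0.05), while 27 had no call. The falls were 30.0% of the list, where 13.0% of all 17988 tested genes fell. Calls in either direction came to 32.5% of the list and 22.4% of all tested genes, and rises to 9.41% of all tested genes. Only Ifi27l2a and Ddx60 fell by at least 2-fold, and 6 of the 12 falls were smaller than 1.5-fold. The median log2 fold change of the 40 genes was -0.18, against 0.009 for all tested genes, and 35 of the 40 values were below 0, as were 48.9% of values of all genes. The groups did not overlap for 19 of the 40 genes (47.5%, against 40.2% of all tested genes). In 18 of these 19 the clodrosome libraries were the lower ones, as in 20.7% of all tested genes. Summed over the 40 genes, the level was 1727, 1725 and 1641 CPM in clodrosome libraries A, B and C and 1970, 1973 and 2027 CPM in encapsome libraries A, B and C. In bulk tissue, fewer cells of a type and less RNA per cell cannot be told apart, and this holds for every difference given here. With the split by rRNA share as a term, 13 of the 40 genes fell and 1 rose (edgeR). Within the libraries of low or of high rRNA share 1 of the groups has only 1 library, so no test was made within them.

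**Figure D1:**
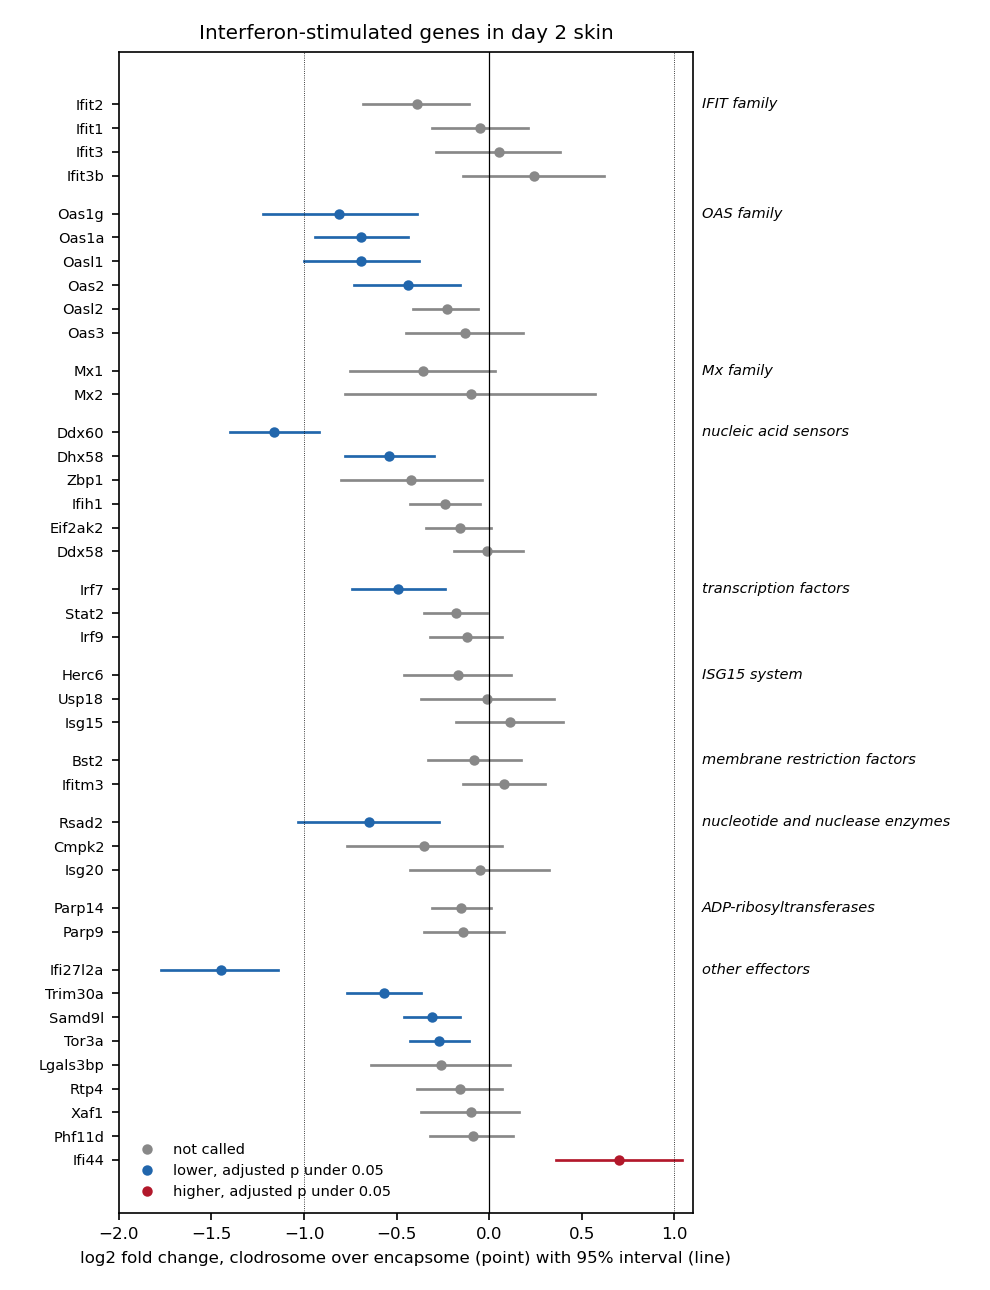
Log2 fold change of each of the 40 interferon-stimulated genes, clodrosome over encapsome, as a point with its 95% interval as a line, grouped by role; blue genes fell, the red gene rose and grey genes had no call. The 12 falls lie between -1.45 and -0.27, Ifi44 is at 0.70, and the uncalled genes lie between -0.42 and 0.24.

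Of the 3 transcription factors in the list, Irf7 fell and Stat2 and Irf9 had no call. Irf7, which interferon induces and which amplifies further interferon production, had 32.3, 39.0 and 32.2 CPM in clodrosome skin, against 52.2, 41.7 and 51.0 CPM in encapsome skin. It fell by 0.49 on the log2 scale (SE 0.112, adjusted p = 0.0133, edgeR), but the highest clodrosome library and the lowest encapsome library lie close together. Without encapsome C the call was lost (adjusted p = 0.0547, edgeR). Stat2, a subunit of ISGF3, had 45.9, 41.2 and 47.2 CPM in clodrosome skin and 50.3, 50.7 and 51.5 CPM in encapsome skin, a log2 fold change of -0.18 ± 0.0755 (SE; adjusted p = 0.118, edgeR). All clodrosome values of Stat2 were below all encapsome values. Irf9, the DNA-binding subunit, had 48.3, 58.9 and 52.8 CPM in clodrosome skin and 55.6, 60.3 and 58.0 CPM in encapsome skin, with overlapping groups and a log2 fold change of -0.12 ± 0.0870 (SE; adjusted p = 0.359, edgeR).

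Among the 6 nucleic acid sensors, the helicases Ddx60 and Dhx58 fell. Ddx60, an RNA helicase known to assist RIG-I (chromosome 8, bases 61928087 to 62038244 of GRCm38), had 14.7, 12.3 and 12.7 CPM in clodrosome skin, against 32.7, 28.1 and 28.4 CPM in encapsome skin. Every clodrosome library held less than every encapsome library, and the gene was 2.23-fold lower (log2 fold change -1.16 ± 0.107 SE, adjusted p = 1.64e-04, edgeR). Dhx58, or LGP2, which binds viral RNA and tunes the other RIG-I-like receptors, had 14.6, 11.9 and 14.4 CPM in clodrosome skin and 19.1, 19.8 and 20.8 CPM in encapsome skin. It fell by 0.54 on the log2 scale (SE 0.107, adjusted p = 0.00697, edgeR), again without overlap.

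The signalling receptors of the same family had no call. Ddx58, or RIG-I, had 49.2, 45.8 and 50.8 CPM in clodrosome skin and 53.3, 46.2 and 47.2 CPM in encapsome skin. Its 95% interval ran between -0.19 and 0.18 on the log2 scale (adjusted p = 0.952, edgeR). Ifih1, or MDA5, the receptor for long double-stranded RNA, had 31.4, 29.5 and 34.3 CPM in clodrosome skin and 35.6, 37.7 and 39.2 CPM in encapsome skin. Its groups did not overlap, but the difference of -0.24 ± 0.0832 (log2, SE) missed the threshold (adjusted p = 0.0670, edgeR), and it passed once libraries were thinned to equal depth (adjusted p = 0.0482, edgeR). Zbp1, a sensor of Z-form nucleic acid that can start necroptosis, had 38.6, 41.4 and 28.9 CPM in clodrosome skin and 37.3, 51.7 and 56.7 CPM in encapsome skin. Its groups overlapped through encapsome A, the lowest encapsome library, and the log2 fold change of -0.42 ± 0.169 (SE; adjusted p = 0.108, edgeR) was called in 2 of 12 alternatives, without that library (adjusted p = 0.0300, edgeR) and without the filter on low counts (adjusted p = 6.81e-04, edgeR). Eif2ak2, or PKR, which halts translation on sensing double-stranded RNA, had a log2 fold change of -0.16 ± 0.0764 (SE; adjusted p = 0.156, edgeR).

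The oligoadenylate synthetase family held 4 falls in its 6 listed genes, the highest share of any role, where 13.0% of all tested genes fell. These enzymes make short adenylate chains that activate RNase L, which cuts RNA. Oas1a had 13.5, 12 and 12.9 CPM in clodrosome skin, against 18.7, 20 and 23.3 CPM in encapsome skin, and fell by 0.69 on the log2 scale (SE 0.111, adjusted p = 0.00258, edgeR). Oas1g, at a lower level, had 2.38, 2.86 and 2.46 CPM in clodrosome skin, against 5.29, 4.19 and 3.88 CPM in encapsome skin, and fell by 0.81 (log2, SE 0.184, adjusted p = 0.0132, edgeR). For both genes each clodrosome library lay below each encapsome library. They cannot be read as independent, because 40.9% of the 100-base stretches of Oas1a transcripts also occur in Oas1g and 38.2% of those of Oas1g occur in Oas1a. Oasl1, which lacks the enzymatic activity and in mice represses translation of Irf7, had 6.19, 6.55 and 7.55 CPM in clodrosome skin, against 12.3, 10.2 and 10 CPM in encapsome skin. It fell by 0.69 (log2, SE 0.136, adjusted p = 0.00672, edgeR), without overlap. Oas2 had 17.7, 14.1 and 16.6 CPM in clodrosome skin, against 19.1, 25.1 and 21.7 CPM in encapsome skin, and fell by 0.44 (log2, SE 0.127, adjusted p = 0.0344, edgeR). This call was lost without any 1 of clodrosome B, clodrosome C, encapsome B and encapsome C (edgeR adjusted p between 0.0743 and 0.143), and with the rRNA-share split as a term (adjusted p = 0.0555, edgeR). Oasl2 (-0.23 ± 0.0790, log2, SE) and Oas3 (-0.13 ± 0.140) had no call, with adjusted p-values of 0.0619 and 0.553 in edgeR.

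The IFIT family, whose proteins bind foreign RNA ends and block its translation, held 0 calls in 4 genes in edgeR, and 1, Ifit2, at an unadjusted p under 0.05 and in DESeq2. Ifit1 had 26.1, 26.9 and 31.6 CPM in clodrosome skin and 26.2, 33.5 and 27.6 CPM in encapsome skin. The groups overlapped throughout, and the 95% interval of the log2 fold change ran between -0.31 and 0.21 (adjusted p = 0.803, edgeR). Ifit3 had 25.2, 26.6 and 37.9 CPM in clodrosome skin and 28.7, 31.0 and 26.8 CPM in encapsome skin. Its highest and its lowest libraries were both from clodrosome skin, and the interval ran between -0.29 and 0.38 (adjusted p = 0.854, edgeR). Ifit3 and its neighbour Ifit3b (log2 fold change 0.24 ± 0.169 SE, adjusted p = 0.357, edgeR) share 31.7% and 27.4% of their 100-base stretches, so counts of either are uncertain. Ifit2, which promotes apoptosis as well as restricting translation, came nearest to a call, with 24.0, 20.7 and 27.6 CPM in clodrosome skin and 35.6, 31.8 and 27.6 CPM in encapsome skin. Its log2 fold change was -0.39 ± 0.126 (SE; adjusted p = 0.0511, edgeR), and it was called without clodrosome C (adjusted p = 0.0387, edgeR), without encapsome C (adjusted p = 0.0447, edgeR) and in 3 other alternatives.

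The Mx genes, which encode dynamin-like GTPases that trap viral particles, held 0 calls in 2 in edgeR, and 0 also at an unadjusted p under 0.05 and in DESeq2. Mx1 had 6.40, 6.68 and 8.99 CPM in clodrosome skin and 7.88, 10.8 and 9.52 CPM in encapsome skin. Clodrosome C reached into the encapsome range, and the log2 fold change was -0.36 with a 95% interval between -0.75 and 0.03 (adjusted p = 0.168, edgeR). Mx2 had the lowest level per kilobase of exon of the 40 genes, 0.551 CPM per kb in clodrosome skin and 0.595 in encapsome skin, and a log2 fold change of -0.10 ± 0.301 (SE; adjusted p = 0.839, edgeR).

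**Figure D2:**
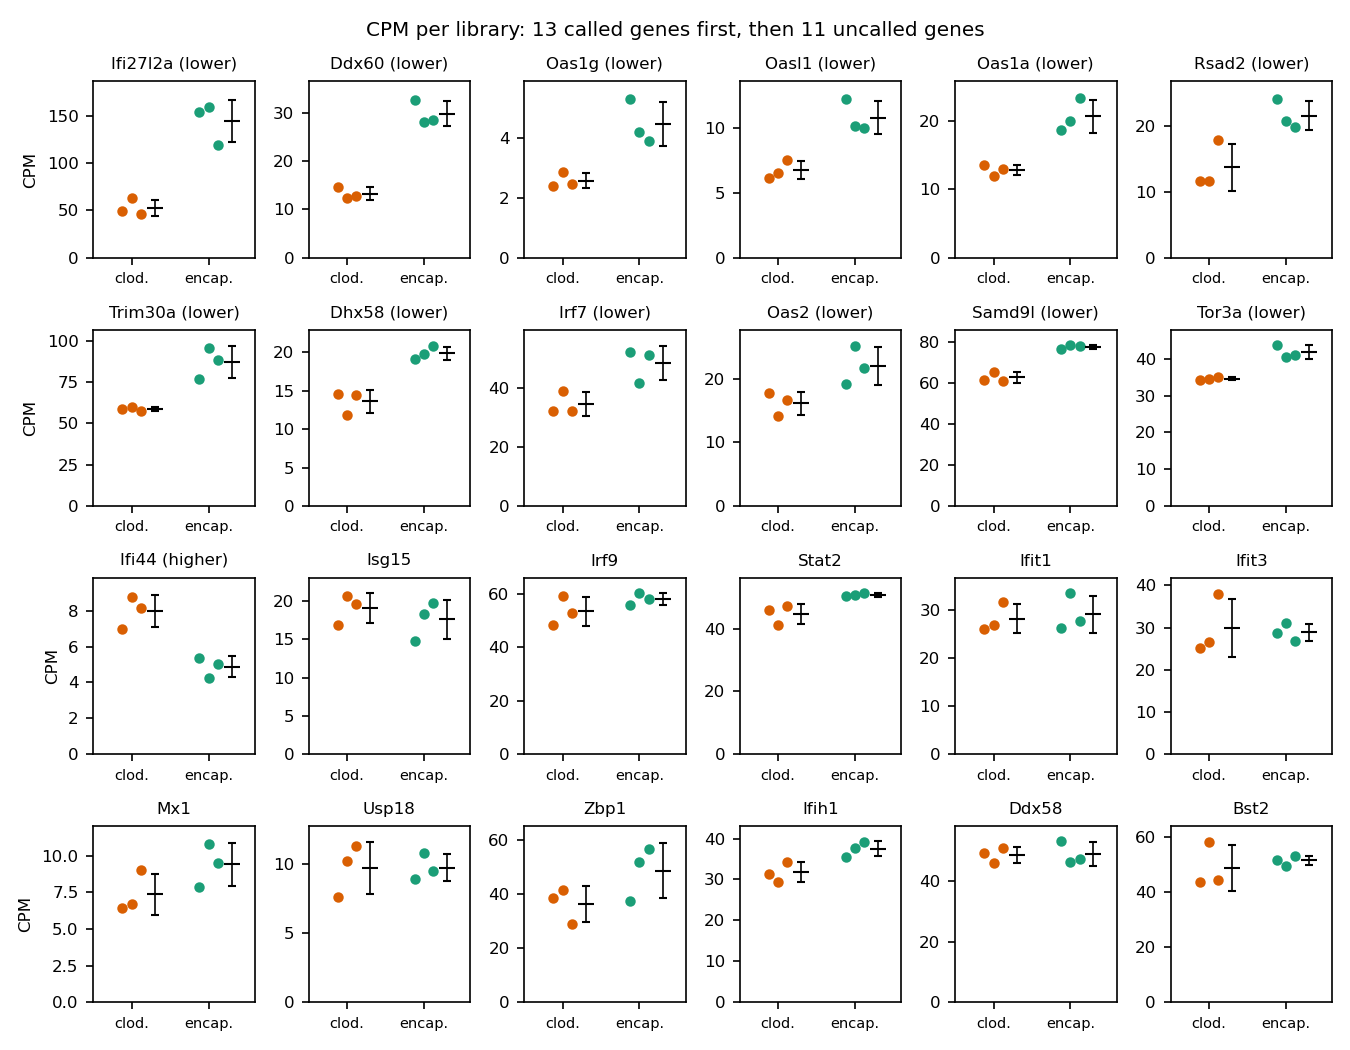
CPM of 24 interferon-stimulated genes in each library (points: clodrosome in orange on the left, encapsome in green on the right; bar: mean ± SD, n = 3), with the 13 called genes first. The groups are apart for all 13 called genes, whereas Ifit1, Ifit3, Isg15, Usp18, Ddx58 and Bst2 overlap.

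The ISG15 system attaches a ubiquitin-like protein to other proteins, and none of its 3 listed genes was called in edgeR (adjusted p between 0.386 and 0.974), at an unadjusted p under 0.05 or in DESeq2. Isg15, the modifier itself, had 16.9, 20.7 and 19.6 CPM in clodrosome skin and 14.8, 18.3 and 19.8 CPM in encapsome skin. The 95% interval of its log2 fold change ran between -0.18 and 0.40 (adjusted p = 0.586, edgeR), with overlapping groups. Usp18, which removes ISG15 and holds back the interferon receptor, had 7.65, 10.2 and 11.3 CPM in clodrosome skin and 8.91, 10.8 and 9.48 CPM in encapsome skin. The difference was -0.01 ± 0.161 (log2, SE; adjusted p = 0.974, edgeR). Herc6, the main ISG15 ligase of mice, had a log2 fold change of -0.17 ± 0.130 (SE; adjusted p = 0.386, edgeR), and 20.9% of its 100-base stretches also occur in the overlapping gene Gm45193.

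The membrane restriction factors held 0 calls in 2, as by unadjusted p under 0.05 in edgeR and by DESeq2. Ifitm3, which stops viruses from fusing in endosomes, had the highest level per kilobase of the 40 genes, 667.7 CPM per kb in clodrosome skin and 632.2 in encapsome skin. Its log2 fold change was 0.08 ± 0.0992 (SE; adjusted p = 0.617, edgeR). Bst2, or tetherin, which holds budding virus at the cell surface and is also abundant on mouse plasmacytoid dendritic cells, had 43.8, 58.4 and 44.5 CPM in clodrosome skin and 51.9, 49.7 and 53.2 CPM in encapsome skin. Clodrosome B held the highest value of the 6 libraries. The log2 fold change was -0.08 ± 0.112 (SE; adjusted p = 0.657, edgeR), and without clodrosome B it was -0.22 and called (adjusted p = 0.0456, edgeR).

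Of the nucleotide and nuclease enzymes, Rsad2 fell. Rsad2, or viperin, makes a chain-terminating nucleotide, and it had 11.7, 11.7 and 17.9 CPM in clodrosome skin, against 24.1, 20.7 and 19.9 CPM in encapsome skin. It fell by 0.65 on the log2 scale (SE 0.170, adjusted p = 0.0241, edgeR), with clodrosome C just below the encapsome range. The call was lost without any 1 of clodrosome A, clodrosome B, encapsome A and encapsome B (edgeR adjusted p between 0.0518 and 0.0826). Cmpk2, a nucleotide kinase that lies beside Rsad2 on chromosome 12 and is transcribed away from it, had 7.42, 6.25 and 10.5 CPM in clodrosome skin and 9.56, 11.3 and 9.97 CPM in encapsome skin. Its groups overlapped, again through clodrosome C. It was not called (log2 fold change -0.35 ± 0.185 SE, adjusted p = 0.211, edgeR), but without that library it was, at -0.58 (adjusted p = 0.0398, edgeR). Isg20, an RNA exonuclease, had a log2 fold change of -0.05 ± 0.167 (SE; adjusted p = 0.860, edgeR). The ADP-ribosyltransferases Parp9 (-0.14 ± 0.0950, log2, SE) and Parp14 (-0.15 ± 0.0720) had adjusted p-values of 0.347 and 0.165 in edgeR. Of the exonic bases of Parp9, 9.40% overlap exons of Dtx3l on the opposite strand, which unstranded counting cannot tell apart.

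Other effectors held both the deepest fall and the only rise. Ifi27l2a, a small membrane protein of the ISG12 family (chromosome 12, bases 103442167 to 103443680 of GRCm38, minus strand), had 49.3, 62.7 and 46.4 CPM in clodrosome skin, against 154.1, 160.0 and 118.9 CPM in encapsome skin. Every encapsome library was well above every clodrosome library, and the gene was 2.74-fold lower (log2 fold change -1.45 ± 0.140 SE, adjusted p = 2.02e-04, edgeR). Per kilobase it stood behind only Ifitm3 among the 40 genes in both groups, at 114.1 CPM per kb in clodrosome skin and 311.7 in encapsome skin.

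Ifi44, an interferon-induced cytoplasmic protein (chromosome 3, bases 151730922 to 151749960 of GRCm38, minus strand), went the other way. It had 7.0, 8.75 and 8.16 CPM in clodrosome skin, against 5.36, 4.23 and 5.02 CPM in encapsome skin. All clodrosome values were above all encapsome values, and the gene was 1.63-fold higher (log2 fold change 0.70 ± 0.151 SE, adjusted p = 0.00985, edgeR).

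Among the other effectors, 3 genes fell by less than 1.5-fold. Trim30a, a TRIM protein that restrains NF-kB signalling in mice, had 59.0, 59.9 and 57.5 CPM in clodrosome skin, against 76.8, 96.1 and 88.8 CPM in encapsome skin, and fell by 0.57 (log2, SE 0.0885, adjusted p = 0.00207, edgeR). The clodrosome libraries were close together and all below the encapsome ones. Samd9l, which limits protein synthesis in infected cells, had 61.5, 65.7 and 61.3 CPM in clodrosome skin, against 76.9, 78.8 and 78.0 CPM in encapsome skin, and fell by 0.31 (log2, SE 0.0663, adjusted p = 0.00967, edgeR). Tor3a, a torsin ATPase of the endoplasmic reticulum, had 34.3, 34.5 and 35.1 CPM in clodrosome skin, against 43.9, 40.4 and 41.1 CPM in encapsome skin. Its fall of 0.27 (log2, SE 0.0706, adjusted p = 0.0235, edgeR) was the smallest of the 12, and although the groups did not overlap it was no longer called without any library other than clodrosome B (edgeR adjusted p between 0.0525 and 0.0806). The call of Tor3a was also lost without the low-count filter (adjusted p = 0.0722, edgeR). Lgals3bp, a secreted galectin-binding protein, had a log2 fold change of -0.26 ± 0.165 (SE; adjusted p = 0.289, edgeR). The receptor chaperone Rtp4, the apoptosis promoter Xaf1 and the zinc-finger gene Phf11d lay between -0.16 and -0.09 with no call, and 11.2% of the 100-base stretches of Rtp4 and 6.30% of those of Phf11d also occur in other genes.

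Precision was enough to bound the uncalled genes. For 20 of the 27 the 95% interval lay within 1.5-fold in both directions, and for all 27 within 2-fold. Of the 19 genes whose groups did not overlap, 6 had no call.

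**Figure D3:**
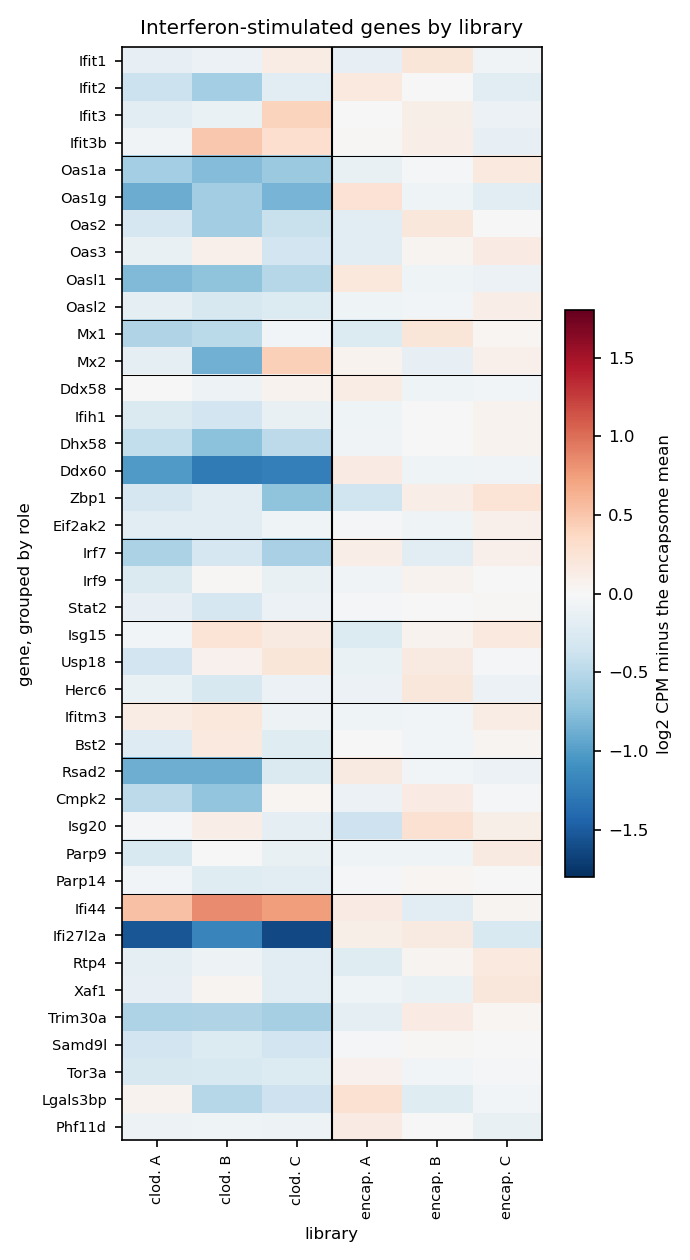
Log2 CPM of the 40 interferon-stimulated genes in each library (columns, clodrosome left of the black line and encapsome right of it; rows grouped by role), minus the mean of the encapsome libraries. Ifi27l2a and Ddx60 are low and Ifi44 is high in all 3 clodrosome libraries, and most other rows are pale.

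The interferons themselves were at the limit of detection. Of 20 type I and type III interferon genes in the table, 16 had 0 counts in all 6 libraries, among them Ifnb1, the gene for interferon beta. The other four held 26 counts in clodrosome skin and 5 in encapsome skin between them, and Ifnk, the keratinocyte interferon, had 20 of these in clodrosome skin (16 in the deepest library) and 3 in encapsome skin. Interferon alpha genes are near-identical copies, and reads that map to several places are left out by the counter's defaults, so their counts are uncertain. Ifng, the gene for interferon gamma, had 0.259, 0.296 and 0.415 CPM in clodrosome skin and 0.581, 0.344 and 0.609 CPM in encapsome skin, with no call (log2 fold change -0.69 ± 0.399 SE, adjusted p = 0.251, edgeR).

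Both chains of the type I interferon receptor and the kinase Tyk2 were lower in clodrosome skin. Of 8 receptor and JAK-STAT genes, 4 fell and 1 rose, where 13.0% of all tested genes fell and 9.41% rose. Their median difference was -0.27 on the log2 scale. Ifnar1 had 73.5, 66.7 and 64.4 CPM in clodrosome skin, against 89.0, 95.6 and 82.6 CPM in encapsome skin, and fell by 0.38 (log2, SE 0.0826, adjusted p = 0.00999, edgeR). Ifnar2 had 41.0, 44.9 and 38.9 CPM in clodrosome skin, against 51.2, 49.5 and 54.2 CPM in encapsome skin, and fell by 0.31 (log2, SE 0.0801, adjusted p = 0.0222, edgeR). Both receptor chains were apart between the groups. Tyk2 fell by 0.40 (log2, SE 0.0747, adjusted p = 0.00513, edgeR), and Il10rb, a chain shared by the receptors of interleukin 10 and of type III interferon, fell by 0.82 (log2, SE 0.0891, adjusted p = 3.24e-04, edgeR). Ifnlr1, the chain particular to type III interferon, was higher, at 8.59, 7.93 and 8.32 CPM in clodrosome skin and 6.33, 6.07 and 6.47 CPM in encapsome skin (log2 fold change 0.40 ± 0.117 SE, adjusted p = 0.0375, edgeR). Several of these calls rest on single libraries, and the count of called genes was 2 without clodrosome C and 3 without clodrosome A, encapsome A or encapsome C. Ifnar1 lost its call without clodrosome C (adjusted p = 0.0528, edgeR). Ifnar2 lost it without clodrosome A, clodrosome C, encapsome A or encapsome C (edgeR adjusted p between 0.0544 and 0.0884). Ifnlr1 lost it without any library other than clodrosome B (edgeR adjusted p between 0.0867 and 0.113). It also lost the call without the low-count filter (adjusted p = 0.0816, edgeR) and with the rRNA-share split as a term (adjusted p = 0.0535, edgeR).

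Among genes that lead to interferon production, the endosomal receptors Tlr7 and Tlr9 and their chaperone Unc93b1 fell most. Of 21 tested in edgeR, 8 fell and 0 rose (1 higher at an unadjusted p under 0.05, 0 in DESeq2). Irf7 is 1 of the 8. Of all tested genes, 13.0% fell and 9.41% rose. Tlr7, the endosomal receptor for single-stranded RNA, had 20, 15.5 and 17.5 CPM in clodrosome skin, against 58.0, 40.8 and 46.7 CPM in encapsome skin (log2 fold change -1.45 ± 0.141 SE, adjusted p = 2.07e-04, edgeR). Tlr9, the receptor for unmethylated DNA, fell by 1.20 (log2, SE 0.155, adjusted p = 7.81e-04, edgeR), and Unc93b1, which carries both receptors to endosomes, fell by 1.19 (log2, SE 0.177, adjusted p = 0.00169, edgeR). The transcription factor Irf5 fell by 0.75 (adjusted p = 2.94e-04, edgeR), Tmem173, or STING, by 0.67 (adjusted p = 0.00119, edgeR) and the kinase Irak4 by 0.46 (adjusted p = 0.00713, edgeR), all log2. Tlr3, the endosomal receptor for double-stranded RNA, had 18.5 to 20 CPM both in clodrosome skin and in encapsome skin (adjusted p = 0.939, edgeR), and the adaptor Mavs had a log2 fold change of -0.14 (adjusted p = 0.438, edgeR). Tlr3 and Mavs were chosen after their values were seen.

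Of 14 brakes on the response tested in edgeR, 5 fell and 0 rose (2 higher at an unadjusted p under 0.05, 1 in DESeq2). Of all tested genes, 13.0% fell and 9.41% rose. Mertk, a receptor for dying cells that dampens cytokine signalling and is also in the macrophage list, fell by 1.88 (log2, SE 0.221, adjusted p = 4.89e-04, edgeR). Ptpn6, or SHP-1, fell by 0.74 (adjusted p = 9.82e-04, edgeR), the nucleotide hydrolase Samhd1 by 0.57 (adjusted p = 0.00170, edgeR), the repressor Irf2 by 0.44 (adjusted p = 0.00459, edgeR) and the antibody receptor Trim21 by 0.37 (adjusted p = 0.0194, edgeR), all log2. Trim21 lost its call without clodrosome C, encapsome B or encapsome C (edgeR adjusted p between 0.0599 and 0.0935) and stood at the threshold without clodrosome A.

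The lists related to interferon gamma, the guanylate-binding proteins and the genes of its pathway, held calls in both directions, beside 22.4% called over all tested genes. Of 11 guanylate-binding proteins, GTPases that attack the vacuoles of intracellular pathogens, 4 rose and 3 fell, around a median of 0.05 on the log2 scale. Gbp11 and Gbp10, both low in level, rose the most, Gbp11 with 4.04, 3.19 and 3.79 CPM in clodrosome skin and 1.07, 1.28 and 0.914 CPM in encapsome skin (log2 fold change 1.75 ± 0.211 SE, adjusted p = 5.67e-04, edgeR). Gbp10 rose by 1.89 (log2, adjusted p = 0.00166, edgeR), Gbp6 by 0.82 (adjusted p = 0.0270, edgeR) and Gbp4 by 0.65 (adjusted p = 0.0226, edgeR). Gbp8 fell by 1.14 (log2, adjusted p = 0.00107, edgeR) and Gbp7 by 0.39 (adjusted p = 0.0338, edgeR). The deepest fall of the family was in Gbp2b, at a low level, with means of 0.438 CPM in clodrosome skin and 1.33 CPM in encapsome skin. Its log2 fold change was -1.42, just under the threshold (adjusted p = 0.0452, edgeR). Gbp4, Gbp6 and Gbp7 each lost the call without several single libraries (edgeR adjusted p between 0.0626 and 0.130), among them encapsome B for all 3. Gbp7 also lost it with the rRNA-share split as a term (adjusted p = 0.0503, edgeR). Gbp2b, named for the depth of its fall, lost its call without clodrosome B, clodrosome C, encapsome A, encapsome B or encapsome C. Its call was lost as well with the rRNA-share term and with thinned or halved counts. The count of called genes was 3 without encapsome B and 4 or 5 without any other library. These genes lie in families of close copies, and how their reads were divided was not examined. Of 22 genes of the interferon gamma pathway 5 fell and 1 rose, a share near that of all tested genes. The gene that rose was Ubd, or FAT10, a ubiquitin-like protein, with 24.4, 29.2 and 12.7 CPM in clodrosome skin, against 3.26, 3.88 and 3.65 CPM in encapsome skin. Every clodrosome library was above every encapsome library, and Ubd was 6.14-fold higher (log2 fold change 2.62 ± 0.279 SE, adjusted p = 3.04e-04, edgeR), with a call in each of the 12 alternatives. Ciita, the regulator of MHC class II genes, fell by 1.14 (log2, adjusted p = 7.89e-04, edgeR), Irf8 by 0.90 (adjusted p = 5.73e-04, edgeR), Ifngr2 by 0.39 (adjusted p = 0.00307, edgeR), the chemokine Cxcl10 by 0.40 (adjusted p = 0.0144, edgeR) and the receptor chain Ifngr1 by 0.26 (adjusted p = 0.0342, edgeR). Ifngr1 lost its call without any library other than clodrosome A (edgeR adjusted p between 0.0553 and 0.134) and without the low-count filter (adjusted p = 0.0661, edgeR). The call of Cxcl10 was lost without encapsome B (adjusted p = 0.0714, edgeR) and without encapsome C (adjusted p = 0.0546, edgeR), and 4 genes of this list were called in each of these fits. Irf1, the transcription factor most directly induced by interferon gamma, had 80.6, 80.3 and 66.2 CPM in clodrosome skin and 71.2, 74.6 and 89.0 CPM in encapsome skin, with overlapping groups and a log2 fold change of -0.05 ± 0.108 (SE; adjusted p = 0.799, edgeR).

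A wider list of other interferon-stimulated genes leaned the same way as the 40. Of 64 tested, 25 fell and 3 rose, where 13.0% of all tested genes fell and 9.41% rose. Their median was -0.28 on the log2 scale, against 0.009 for all tested genes. Epsti1 had 23.2, 20.5 and 22.6 CPM in clodrosome skin, against 44.5, 40.3 and 40.3 CPM in encapsome skin (log2 fold change -0.91 ± 0.0844 SE, adjusted p = 1.69e-04, edgeR). The DNA-sensor family members Ifi209 (-0.66) and Ifi204 (-0.74), the Schlafen gene Slfn5 (-0.63) and the monocyte chemokine Ccl12 (-1.63) also fell on the log2 scale (edgeR adjusted p between 3.87e-04 and 7.81e-04). Ccl5, a chemokine made by T cells and other cells, rose, with 8.26, 8.91 and 6.53 CPM in clodrosome skin and 2.61, 2.41 and 2.28 CPM in encapsome skin (log2 fold change 1.69 ± 0.167 SE, adjusted p = 2.23e-04, edgeR).

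**Figure D4:**
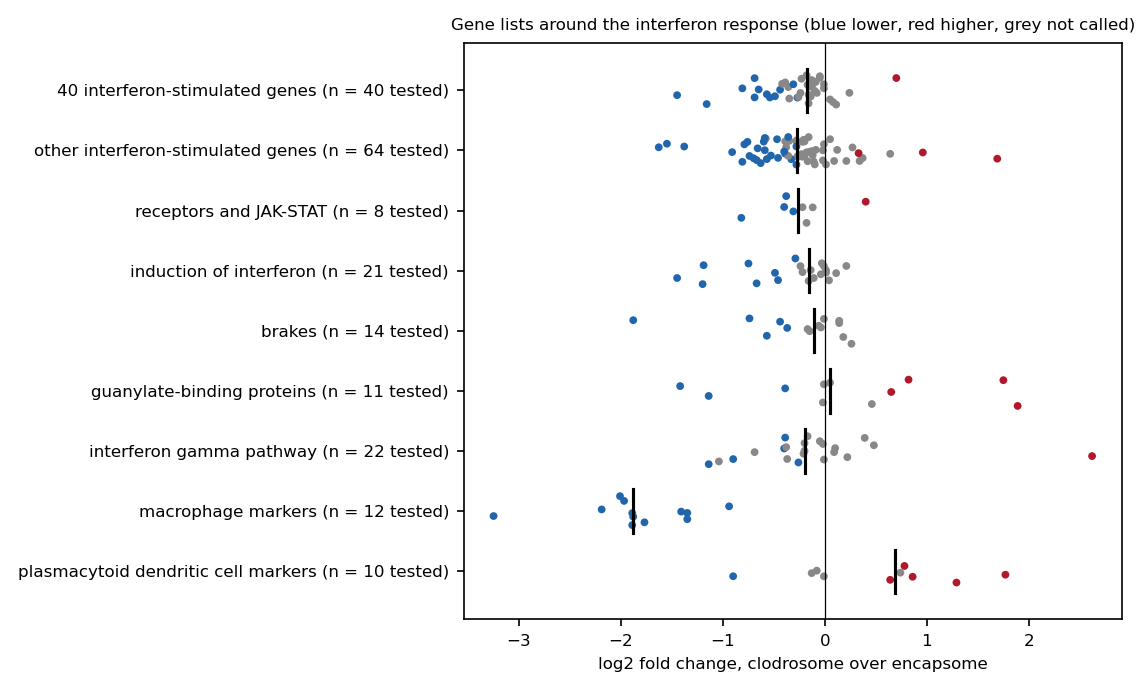
Log2 fold change of every tested gene (points) in the lists around the interferon response, clodrosome over encapsome, with the median of each list as a black bar; blue genes fell, red rose and grey had no call. The 40 genes (median -0.18) and the other interferon-stimulated genes (-0.28) lie just left of 0, the macrophage markers far left (-1.89) and the plasmacytoid dendritic cell markers right (0.69).

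Markers of macrophages, fibroblasts and blood endothelium were among those that differed between the groups, and the counts below stand beside 22.4% called over all tested genes. Besides the 12 macrophage markers, all with falls between -3.25 and -0.94 on the log2 scale, 7 of 7 fibroblast markers fell, with a summed level of 2248 to 4305 CPM in clodrosome skin and 8113 to 9578 CPM in encapsome skin. At a share near that of all genes, monocyte markers held 2 falls in 8, with a summed level of 473 to 602 CPM in clodrosome skin and 613 to 805 CPM in encapsome skin. Dendritic and Langerhans cell markers held 2 falls and 1 rise in 9, with a summed level of 234 to 259 CPM in clodrosome skin and 263 to 275 CPM in encapsome skin. Plasmacytoid dendritic cell markers held 5 rises (Siglech, Ccr9, Spib, Klk1 and Cox6a2) and 1 fall, Irf8, in 10. They held only 3 calls in all without clodrosome C or without encapsome B. Their summed level was 228 to 247 CPM in clodrosome skin and 238 to 252 CPM in encapsome skin. Neutrophil markers, again near that share, held 2 rises in 9, with a summed level of 1541 to 2165 CPM in clodrosome skin and 1134 to 1830 CPM in encapsome skin. Markers of blood endothelium held 6 rises in 8, and keratinocyte markers 4 rises and 3 falls in 8. Skeletal muscle markers held 5 rises in 8 (2 calls without clodrosome C, encapsome A or encapsome B), and T and NK cell markers 1 rise in 10 (0 calls without clodrosome A, clodrosome B or encapsome B). Of 5 red blood cell genes, Hba-a1, Hba-a2, Hbb-bs, Hbb-bt and Alas2, 4 fell in edgeR (1 in DESeq2), with a summed level of 115.0 to 195.7 CPM in clodrosome skin and 234.2 to 676.6 CPM in encapsome skin, where encapsome B was the highest. Without any 1 clodrosome library or with the rRNA-share split as a term 0 of these 5 were called, and without encapsome B 1 was. No marker in these lists was at 0 counts in all libraries. The part of these cell types and of blood in the differences of the interferon-stimulated genes was not tested. Within the clodrosome group, library B held the lowest summed macrophage level. Among the genes that fell, it held the highest clodrosome level of Ifi27l2a, Irf7, Oas1g, Trim30a and Samd9l. It held the lowest clodrosome level of Ddx60, Dhx58, Oas1a and Oas2. These values of a single library were chosen after they were seen, with no test.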

How the data were processed

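Polyadenylated RNA of 6 skin libraries was sequenced from stranded paired-end libraries, per the labels' protocols. Per the file headers, the authors deposited unnormalised counts of reads for each gene, made by featureCounts 1.6.2 on Ensembl annotation 102 of GRCm38 (the assembly of mm10). The header's command sets no option for pairs, strand or multiply mapped reads. By that tool's defaults each read end counts alone and on either strand, while reads with several map positions or within several genes are dropped. Accordingly between 63.6% and 69.7% of counts from 1 to 20 were even, counts are about double the read pairs, and near-identical or overlapping genes lose reads. The exonic length that the deposited table gives, which has no normalization, was used for CPM per kb. Per the submitters' processing notes, Trimmomatic 0.36, HISAT2 2.2.1, StringTie 2.2.1 and DESeq2 1.34.0 were also used, with mm10.

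Symbols were matched for 55141 of 55487 identifiers (99.4%). Columns were assigned to groups by name, and 0 other sample columns were present. Counts were tested with edgeR 4.0.16 in R 4.3.3 (limma 3.58.1), by glmQLFit and glmQLFTest with group as the only term, TMM factors (0.982 to 1.02), filterByExpr (minimum count 10, minimum total 15) and Benjamini-Hochberg adjustment over 17988 genes at a threshold of 0.05. The SE is the log2 fold change divided by the root of F, and positive values mean higher in clodrosome skin. The common biological coefficient of variation was 0.125. Libraries of a group differed by a chi-square per gene between 9.74 and 59.4, so none looked like a repeat of another. The procedure was tested on simulated counts. Alternatives were the median-of-ratios size factors, DESeq2 1.42.0, no low-count filter, libraries thinned to 26649396 counts, halved counts, the rRNA-share split as a term, and each library left out. Shared transcript sequence was searched as exact 100-base stretches.

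The 40 genes and all other lists were chosen with earlier results of these data known. Values in every library are given for called genes and for 14 well-known members whether called or not, and up to 6 called genes of smallest p from each pathway or related list were named, with Ifnb1, Ifng, Ifnar1, Ifnar2 and Irf1 in every case. One gene of these lists is not reported here, and the counts of its lists leave it out.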

Additional observations from a re-analysis of the deposited data

How the results depend on the processing

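Across 12 alternatives the 13 called interferon-stimulated genes kept their direction and 9 kept the call in all of them, the exceptions being Tor3a, Oas2, Rsad2 and Irf7. Falls numbered 12 with median-of-ratios size factors and with halved counts, 13 with DESeq2, without the filter, with thinned counts and with the rRNA term, and 9 to 12 when each library was left out, and Ifi44 rose in each. Of 480 gene values, 436 kept their direction and side of the threshold, 16 lost a call, 11 gained one and 17 reversed, all of the reversed ones uncalled. Ddx58 reversed without the filter (0.01, log2) and when libraries were left out (-0.05 to 0.06). Usp18 reversed without the filter (0.0017), with the rRNA term (0.04) and when libraries were left out (-0.14 to 0.15). Isg20 (0.10) and Irf1 (0.01) reversed with the rRNA term and when libraries were left out (-0.22 to 0.09 and -0.11 to 0.05). Ranges on leaving libraries out were -0.14 to 0.07 for Ifit1, -0.16 to 0.16 for Ifit3, -0.44 to 0.13 for Mx2, -0.0021 to 0.20 for Isg15 and -0.18 to 0.0000 for Xaf1. The cause was not tested. Genes called over the whole table ranged between 2477 and 4396 when libraries were left out, lowest without encapsome B and also low without clodrosome C (2642). Called genes of the pathway and related lists, 31 in the full fit, ranged between 21 and 30, lowest without encapsome C. Fits without 1 library keep fewer samples, which alone lowers power. No paired analysis was possible because the columns do not carry the replicate numbers of the sample titles, so the planned replicate block was not run. Thinned or halved counts moved the number of falls by at most 1.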

Other observations

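Within clodrosome skin, the library with the highest level differed between genes. Clodrosome B was highest for 18 of the 40 genes, clodrosome C for 15 and clodrosome A for 7. Clodrosome C was highest for Ifit1, Ifit2, Ifit3, Mx1, Mx2, Usp18, Rsad2 and Cmpk2, and it exceeded the median of its group by 1.53-fold for Rsad2, 1.54-fold for Mx2, 1.43-fold for Ifit3, 1.42-fold for Cmpk2 and 1.35-fold for Mx1. Clodrosome B was highest for Isg15, Bst2, Irf7, Irf9 and Ifi27l2a, exceeding the median by 1.05-fold for Isg15 and 1.31-fold for Bst2. These are values of single libraries, chosen after they were seen, with no test.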
